A study of Mus musculus with 22 samples.

Results

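The Hox genes are the 39 protein-coding genes whose symbols are Hoxa, Hoxb, Hoxc or Hoxd followed by a number, and all 39 were found among the 55487 genes of each of the 3 deposited count tables. They were read as counts per M (mega) counts of a library (CPM, scaled by TMM over all 22 libraries) to ask which levels of the body axis the sensory ganglia and the neuron cultures represent and whether the groups match. The libraries came from mouse dorsal root ganglia (DRG), the clusters of sensory neurons beside the spinal cord. In 12 of them DRG neurons had been cultured for 72 h: 3 each from mice labelled Postn knock out (KO) with recombinant periostin (rPOSTN), KO with control medium, wild type (WT) with rPOSTN, and WT with control medium. The other 10 were whole ganglia from thoracic level 10 to lumbar level 5 of mice given imiquimod (IMQ, a skin irritant that provokes psoriasis-like inflammation) or vehicle for 5 days: 2 KO IMQ, 3 KO vehicle, 2 WT IMQ and 3 WT vehicle libraries. The labels give no strain, age or sex, do not say how the knockout was made or which segments the cultures came from, and do not say whether replicates are separate animals or cultures, so each p below measures the spread between these samples, which may be technical.

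Hox proteins are homeodomain transcription factors encoded in 4 chromosomal clusters, whose genes are numbered by paralogue group from 1 to 13. The order of genes along a cluster matches their order along the body, so that low numbers are active from the hindbrain downwards and higher numbers begin at successively more caudal levels. In mouse, group 9 genes act from thoracic levels, group 10 genes mark the lumbar region, where they suppress rib formation, group 11 genes the lumbosacral region, and group 13 genes the tail end. Adult neurons keep much of this code, so that Hox transcripts can be read as a record of segmental origin.

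The libraries held between 16.7 and 24.1 M (mega) counts each. Postn, the gene named in the genotype labels, ran from 67 to 426 CPM in KO cultures, against 655 to 960 CPM in WT cultures. The libraries of KO culture 3 held 426 CPM with rPOSTN and 382 CPM in control medium, and the other 4 KO culture libraries 67 to 104 CPM. In KO ganglia Postn ran from 3.63 to 7.86 CPM, against 21.9 to 52.5 CPM in WT ganglia. Postn transcripts were thus lower in KO within each preparation but not absent, and KO cultures held more than WT ganglia. Sensory neuron markers were present in every library: Avil, an actin-binding protein of sensory neurons, ran from 489 to 649 CPM in cultures and from 927 to 1129 CPM in ganglia. Among the ganglia, WT IMQ 2 alone had almost no Xist, which silences 1 X chromosome in female cells: it held 0.187 CPM, and the other 9 held 204 to 251 CPM, and WT cultures 1 and 2 had at most 0.804 CPM, against 565 to 1203 CPM in the other cultures.

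The promoters of 3 genes of the Hoxd cluster are shown because these genes behaved differently in culture. Hoxd1 and Hoxd10 were far lower than in ganglia, and Hoxd9 was not called. Hoxd10 was high enough to be tested only through its ganglion values, so that it could only be called lower. A link between promoter sequence and these levels was not tested. Each window runs from 250 bases before the annotated start to 50 bases after it, 5′ to 3′ on the plus strand, and was taken from RefSeq on GRCm38.p6. Capitals mark the letters CCAAT or their reverse complement ATTGG. The windows are chr2:74762730-74763029 for Hoxd1, chr2:74697513-74697812 for Hoxd9 and chr2:74691641-74691940 for Hoxd10.
Hoxd1: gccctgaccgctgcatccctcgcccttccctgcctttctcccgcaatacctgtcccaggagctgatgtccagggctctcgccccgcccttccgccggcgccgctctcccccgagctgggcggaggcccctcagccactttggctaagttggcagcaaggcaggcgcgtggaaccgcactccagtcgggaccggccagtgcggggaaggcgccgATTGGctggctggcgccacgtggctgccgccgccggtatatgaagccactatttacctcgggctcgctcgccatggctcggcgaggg
Hoxd9: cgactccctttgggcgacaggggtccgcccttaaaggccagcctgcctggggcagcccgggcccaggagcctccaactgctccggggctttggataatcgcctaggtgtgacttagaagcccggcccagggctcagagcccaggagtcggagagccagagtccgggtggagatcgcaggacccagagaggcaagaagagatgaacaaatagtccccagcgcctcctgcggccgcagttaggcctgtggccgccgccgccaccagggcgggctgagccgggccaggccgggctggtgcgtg
Hoxd10: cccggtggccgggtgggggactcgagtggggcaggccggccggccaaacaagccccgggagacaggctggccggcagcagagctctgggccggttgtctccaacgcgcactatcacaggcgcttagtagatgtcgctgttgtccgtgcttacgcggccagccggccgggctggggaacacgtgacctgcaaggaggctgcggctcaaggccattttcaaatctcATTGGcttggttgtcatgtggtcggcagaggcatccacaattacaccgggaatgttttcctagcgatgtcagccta
The windows of Hoxd1 and Hoxd10 each held 1 CCAAT match, on the minus strand, and that of Hoxd9 held 0. This match alone is common: 37.4% of 32851 promoter windows of the same length held it on either strand. None of the 3 windows held TGATNNAT, the pattern that Hox proteins bind with their PBX partners and that 8.85% of all windows held, or TATAAA, which 13.6% held. They were rich in CG, with 29, 20 and 22 CG pairs in Hoxd1, Hoxd9 and Hoxd10, against a median of 7 over all windows. Of the 39 genes, 22 had a promoter in the table used.

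In ganglia the Hox genes formed a broad block up to group 10, and group 11 followed at lower levels. Hoxa11, Hoxc11 and Hoxd11 each had counts in all 10 ganglion libraries, and Hoxc11 averaged 1.69 CPM. Of the 39 genes, 28 averaged at least 1 CPM over the 10 ganglion libraries, and 26 reached 1 CPM in every one. Per kilobase of exon, the highest mean levels were those of Hoxa7 (13.6 CPM per kb), Hoxd1 (13), Hoxd8 (12), Hoxa9 (7.08), Hoxb7 (6.51) and Hoxb5 (6.42). Groups 10 and 11 followed as a falling series: Hoxa10 averaged 5.28, Hoxc10 3.62 and Hoxd10 3.6 CPM per kb, and Hoxc11 0.838, Hoxa11 0.272 and Hoxd11 0.131 CPM per kb. The genes of groups 12 and 13 gave 3 counts in all 10 ganglion libraries together, 1 each for Hoxc12, Hoxb13 and Hoxc13. Hoxd12 had no count in any of the 22 libraries, which allows up to 0.124 to 0.18 CPM per library on plain totals, counting error only.

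**Figure D1:**
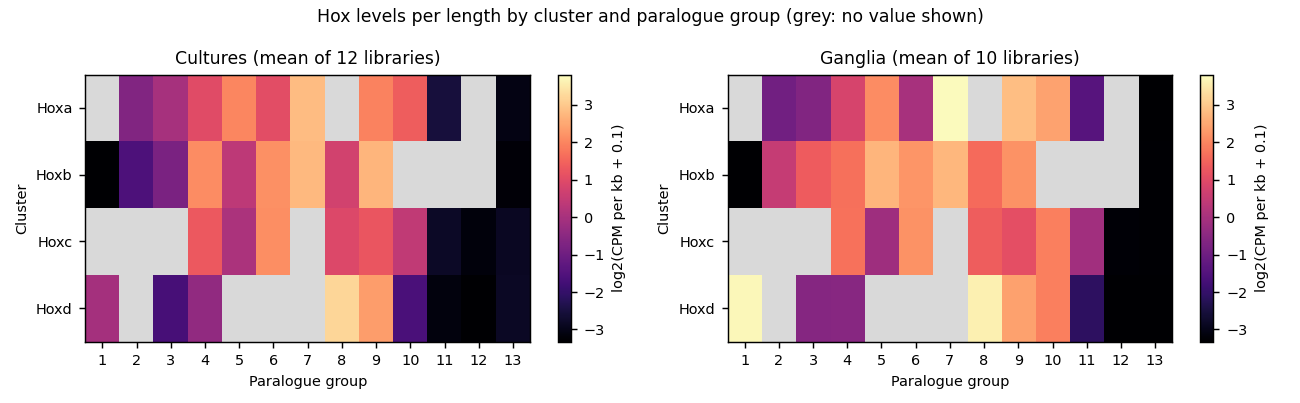
Mean Hox level per length, as log2(CPM per kb + 0.1), by cluster (rows) and paralogue group (columns), in 12 culture libraries (left) and 10 ganglion libraries (right); grey squares have no value shown. Ganglia show bright squares at Hoxd1 (13 CPM per kb) and Hoxa7 (13.6), and levels fade from group 10 to group 11 (Hoxc11, 0.838).

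At the rostral end, Hoxb1 had no count in ganglia. Hoxd1, which in mouse is needed for normal development of pain-sensing neurons, ran from 20.4 to 27 CPM over the 10 ganglion libraries with a median of 24.7. Per kilobase Hoxd1 ranked second of the 39 genes in ganglia, although its group number is the lowest. Hoxb3 ran from 6.86 to 13.4 CPM and Hoxb2 from 3.3 to 6.2 CPM. Their levels carry a limit: Hoxb3os, on the opposite strand, overlaps 52.9% of the exon length of Hoxb3 and 27.3% of that of Hoxb2 in GENCODE M21, and the strand setting of the counting is not given in the sources used here. Hoxd3 and Hoxd4 share 62.3% and 52.3% of their exon length with each other and with Gm28230 on the same strand, so that their reads may be split between them.

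Groups 4 to 8 gave the largest part of the Hox counts, 50.6 to 55.3% per ganglion library. These genes act over cervical and thoracic levels; Hoxc6 and Hoxc8, for example, take part in specifying motor neurons of the forelimb segments. In ganglia Hoxc6 ran from 8.22 to 13.7 CPM with a median of 10.5, Hoxc8 from 5.33 to 9.89 CPM with a median of 6.79, and Hoxa7 from 34.2 to 45.6 CPM with a median of 39.1. No ganglion library lacked any of the 3, although the dissected levels lie caudal to the forelimb segments.

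Group 9 was present from all 4 clusters in every library. Hoxa9 ran from 34.2 to 48 CPM in ganglia with a median of 38.3, Hoxb9 from 9.4 to 16.3 CPM with a median of 11, Hoxc9, which in mouse sets thoracic motor neuron identity, from 3.19 to 7.44 CPM with a median of 5.23, and Hoxd9 from 7.8 to 17 CPM with a median of 10.5. Together they gave 19.5 to 23.4% of the Hox counts of a ganglion library.

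**Figure D2:**
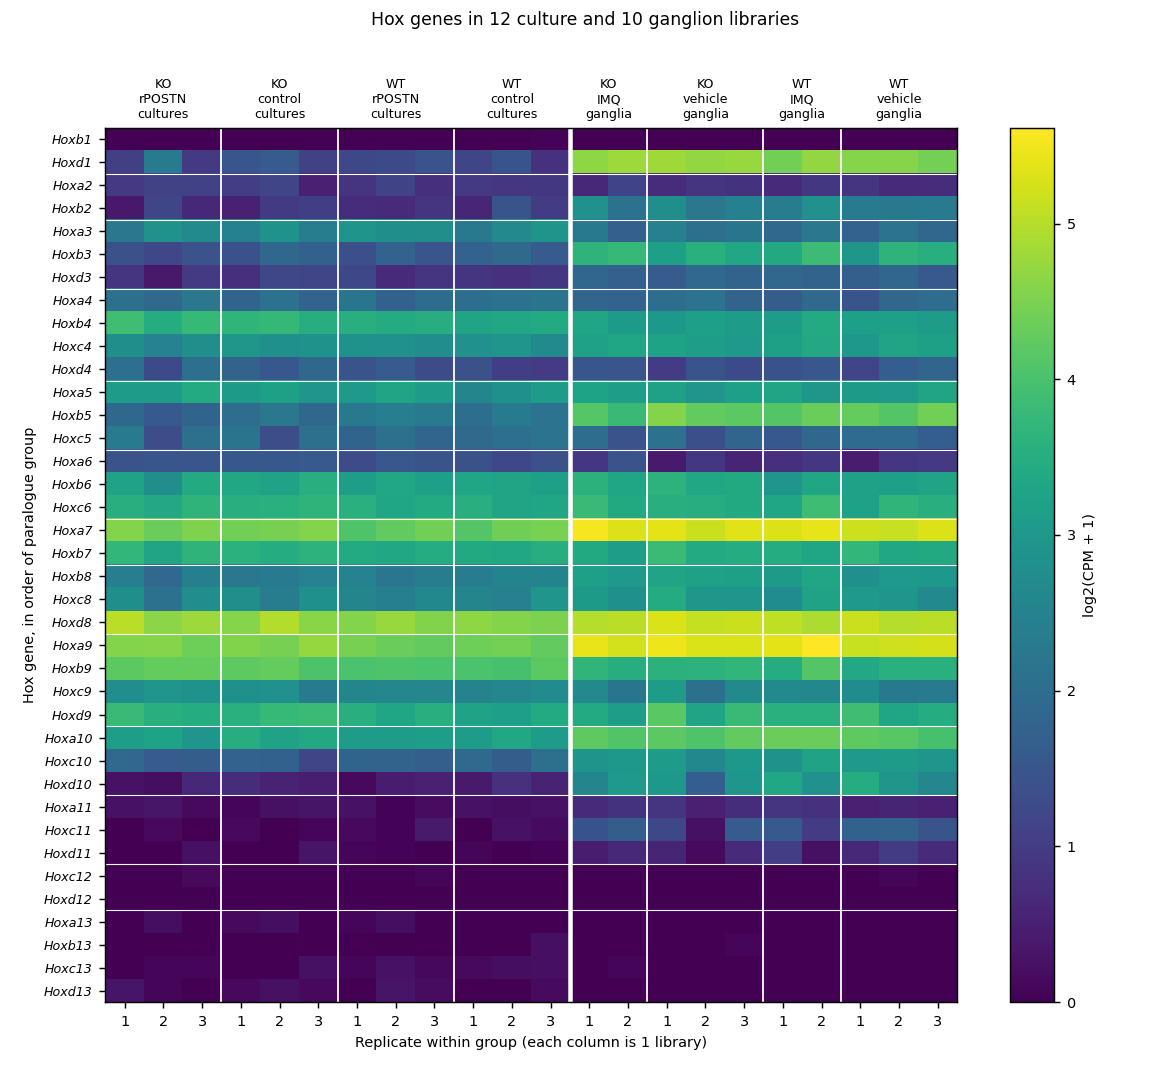
Levels of Hox genes (rows, by paralogue group) in each library (columns), as log2(CPM + 1), with cultures on the left and ganglia on the right. Hoxd1 is bright in all 10 ganglion libraries (20.4 to 27 CPM) and dark in cultures (0.749 to 4.05 CPM), and the rows of groups 12 and 13 are dark throughout.

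The most caudal genes detected set the lower limit of the ganglia. Groups 10 to 13 together gave 8.13 to 12.7% of the Hox counts in a ganglion library, of which groups 12 and 13 gave at most 0.0214%. Hoxa10 was even, at 17.6 and 16 CPM in KO IMQ, 17.3, 15.9 and 18.3 in KO vehicle, 19.3 and 19 in WT IMQ, and 17.6, 16.9 and 14.9 in WT vehicle ganglia. Hoxc10 had 6.51 and 6.91 CPM in KO IMQ, 7.5, 5.12 and 6.97 in KO vehicle, 6.27 and 8.37 in WT IMQ, and 7.17, 7.43 and 6.82 in WT vehicle ganglia. The groups overlapped for Hoxc10. For Hoxa10 both WT IMQ libraries lay above those of the other 3 groups, which overlapped one another.

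Hoxd10, which in mouse patterns lumbar motor neurons and hindlimb innervation, varied more. It had 4.85 and 7.23 CPM in KO IMQ, 7, 2.22 and 6.75 in KO vehicle, 9.11 and 6.19 in WT IMQ, and 10.1, 6.81 and 5.06 in WT vehicle ganglia. KO vehicle 2 was the lowest of the 10, and its counting interval of 1.63 to 2.97 CPM (exact Poisson, 95%, counting error only) lay below every other library's value. Hoxc11 was at 0.193 CPM in that library (4 counts; interval 0.0527 to 0.495 CPM), against 1 to 2.46 CPM in the other 9 ganglion libraries. Hoxd11 was at 0.0967 CPM there (2 counts), against 0.187 to 1.02 CPM in the others. Hotair, a non-coding RNA transcribed between Hoxc11 and Hoxc12 and no member of the 39, was also lowest in KO vehicle 2, at 0.0967 CPM against 0.187 to 1.12 CPM.

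The low values of KO vehicle 2 did not extend to every group 10 or 11 gene. Hoxa10 was at 15.9 CPM, inside the range of the other 9 (14.9 to 19.3), and Hoxa11 at 0.435 CPM, also inside it (0.427 to 0.819). Hoxc10 was again the lowest, at 5.12 CPM against 6.27 to 8.37 CPM. Group 11 gave 0.246% of its Hox counts, against 0.564 to 1.33% in the others. The next lowest for Hoxc11, Hoxd11, group 11 as a whole and Hotair was WT IMQ 2, with 1 CPM of Hoxc11, 0.187 CPM of Hoxd11 and 0.187 CPM of Hotair. Whether the lumbar ganglia were sampled in the same proportion in these libraries was not tested.

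**Figure D3:**
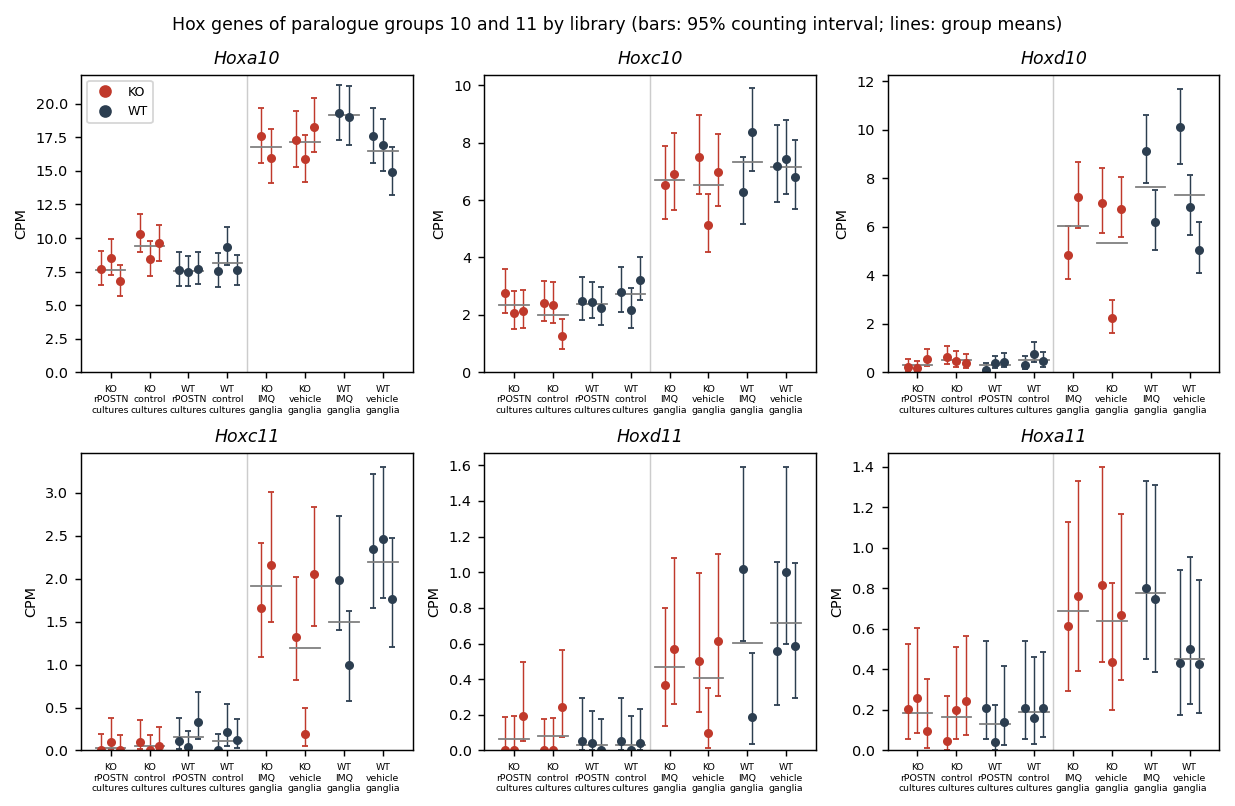
CPM of 6 genes of groups 10 and 11 in each library by group, KO in red and WT in dark blue, with 95% exact Poisson intervals (counting error only) and group means as grey lines. KO vehicle ganglion library 2 is lowest for Hoxd10 (2.22 CPM) and Hoxc11 (0.193 CPM) but not for Hoxa10 (15.9 CPM), and all 12 culture libraries lie at or below 0.738 CPM for Hoxd10.

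KO was set against WT in vehicle ganglia to see whether the genotypes were matched in segmental level before any treatment. No Hox gene was called: 0 of the 32 tested passed an adjusted p (FDR) of 0.05 in the edgeR quasi-likelihood test with Benjamini-Hochberg adjustment over 17197 genes, where 0.0116% of all genes were called. Before adjustment 1 had p under 0.05, and DESeq2 also called 0. The other 7 genes (Hoxb1, Hoxc12, Hoxd12 and the 4 of group 13) had too few counts to be tested in any comparison of ganglia. The median log2 change of the 32 was 0.11, against 0.02 over all genes, and for 26 the 95% interval lay within 1 log2 unit of 0.

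In 5 of the 32 Hox genes the 3 KO libraries lay above the 3 WT libraries, and in 0 below; these are 15.6% of the Hox genes tested, against 6.91% of all genes whose groups did not overlap in either direction. The smallest p was that of Hoxb8, a gene also active in blood and microglial precursors. It had 8.76, 8.32 and 8.08 CPM in KO, against 6, 7.2 and 6.98 CPM in WT vehicle ganglia, without overlap (log2 change 0.32 ± 0.13 SE, edgeR adjusted p = 1). Hoxd1 had 27, 25.2 and 26 CPM in KO, against 23.2, 23.3 and 20.7 CPM in WT (0.22 ± 0.11), again without overlap. Hoxb6 had 11.3, 9.14 and 9.59 CPM in KO, against 8.22, 7.93 and 8.74 CPM in WT. Those groups did not overlap either, while those of Hoxd4 (1.01, 1.74 and 1.39 CPM in KO, against 1.24, 2.18 and 2.56 in WT) and Hoxa3 (4.47, 3.19 and 3.51 CPM in KO, against 2.41, 3.41 and 2.61 in WT) did. Between libraries of the same replicate number Hoxd4 was lower in KO in 3 of 3 pairs (−0.50 ± 0.26 with the replicate block, edgeR adjusted p = 0.997). Among all 32 Hox genes 10 had 1 direction in the 3 pairs, or 31.2%, against 30.2% of all genes.

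The caudal genes did not differ in 1 direction between the genotypes. Hoxc11, Hoxd11 and Hoxd10 had lower values in KO, which shrank towards 0 without KO vehicle 2. Hoxc11 differed by −0.89 on the log2 scale between KO and WT vehicle ganglia (95% interval −2.17 to 0.39), and by −0.35 without KO vehicle 2. Hoxd11 differed by −0.85 (−2.35 to 0.64), and by −0.34 without that library. Hoxd10 differed by −0.46 (−1.40 to 0.48), and by −0.07 without it. Hoxa11 and Hoxa10 had higher values in KO: Hoxa11 had 0.819, 0.435 and 0.669 CPM in KO, against 0.433, 0.502 and 0.427 CPM in WT (0.48, interval −0.27 to 1.22, and 0.71 without KO vehicle 2), and Hoxa10 differed by 0.07 (−0.19 to 0.32). The intervals of Hoxc11 and Hoxd11 reach far below 0 and also above it, so that a match of the genotypes at group 11 could not be shown at this depth. The 9 myelinating Schwann cell markers summed to 6714 to 7963 CPM in KO and 10251 to 15716 CPM in WT vehicle ganglia. Of these 9, 0 were called between the genotypes, and their part in the result was not tested.

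In IMQ ganglia, KO against WT again called 0 of 32 Hox genes (0.00581% of all genes were called; 0 Hox genes had unadjusted p under 0.05, and DESeq2 called 0). The median log2 change was −0.07, against −0.00 over all genes. The smallest p was that of Hoxb6, at 11.2 and 8.81 CPM in KO, against 6.7 and 8.81 CPM in WT (0.37 ± 0.20). The nearest libraries of the groups were both at 8.81 CPM. Hoxb5 had 16.6 and 13 CPM in KO, against 16.4 and 19.5 CPM in WT, and Hoxa6 had 0.859 and 1.71 CPM in KO, against 0.696 and 0.875 CPM in WT, both with overlap. Hoxa10 (17.6 and 16 CPM in KO, against 19.3 and 19 in WT) did not overlap, at a log2 change of −0.20 ± 0.14. With 2 libraries a group, 4 of 32 Hox genes did not overlap, or 12.5%, against 33.2% of all genes.

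IMQ treatment was compared with vehicle to see whether the treated and untreated ganglia held the same segments. In KO ganglia 0 of 32 Hox genes were called, where 1.1% of all genes were called (1.09% higher and 0.0174% lower) and 1 Hox gene had unadjusted p under 0.05. In WT ganglia 0 of 32 were called, where 1.3% of all genes were called (1.12% higher and 0.18% lower) and again 1 Hox gene had unadjusted p under 0.05. DESeq2 called 0 in either genotype. The median log2 change of the Hox genes was −0.01 in KO and 0.14 in WT, against −0.01 over all genes in each, and 24 of 32 intervals in KO and 23 in WT lay within 1 log2 unit of 0. Macrophage markers rose in the same libraries, with 8 of 10 called higher in each genotype. Their summed level was 421 to 480 CPM in KO IMQ, against 126 to 150 CPM in KO vehicle ganglia, and 498 to 551 CPM in WT IMQ, against 118 to 148 CPM in WT vehicle ganglia. Myelinating Schwann cell markers summed to 5455 to 5931 CPM in KO IMQ, against 6714 to 7963 CPM in KO vehicle ganglia, and to 5409 to 7739 CPM in WT IMQ, against 10251 to 15716 CPM in WT vehicle ganglia, with Drp2 alone of the 9 called lower, in WT (−1.51 ± 0.17, edgeR adjusted p = 0.00163). Erythroid markers summed to 21.5 to 28.2 CPM in KO IMQ, against 42.6 to 482 CPM in KO vehicle ganglia, and to 32.4 to 47.5 CPM in WT IMQ, against 111 to 148 CPM in WT vehicle ganglia, with 0 of 5 called. Adipocyte markers summed to 10.1 to 14.2 CPM in KO IMQ, against 3.12 to 5.48 CPM in KO vehicle ganglia, and to 11.6 to 19.1 CPM in WT IMQ, against 4.8 to 8.37 CPM in WT vehicle ganglia, with 0 of 5 tested called. The part of these cells in the Hox values was not tested.

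The groups did not overlap for 6 of 32 Hox genes in KO (18.8%, against 23.6% of all genes) and for 6 of 32 in WT (18.8%, against 21.4% of all genes). In KO the first were Hoxa6 at 0.859 and 1.71 CPM with IMQ, against 0.315, 0.87 and 0.502 CPM with vehicle (1.13 ± 0.49, edgeR adjusted p = 0.576, with overlap), and Hoxb5 at 16.6 and 13 CPM with IMQ, against 22.7, 18.1 and 17.3 CPM with vehicle (−0.40 ± 0.18, adjusted p = 0.597, without overlap). Hoxd9 had 9.82 and 7.8 CPM with IMQ, against 17, 8.65 and 12.9 CPM with vehicle in KO. Hoxd8 had 30.9 and 32 CPM with IMQ, against 38.6, 34 and 34.8 CPM with vehicle in KO, and Hoxb7 9.63 and 7.8 CPM against 13.2, 9.77 and 10.1 CPM. The KO groups of Hoxd9 overlapped, and those of Hoxd8 and Hoxb7 did not.

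In WT the smallest p was that of Hoxa9, at 40.8 and 48 CPM with IMQ, against 34.2, 35.8 and 37.3 CPM with vehicle (0.31 ± 0.12, edgeR adjusted p = 0.576). Hoxa11 had 0.804 and 0.75 CPM with IMQ, against 0.433, 0.502 and 0.427 CPM with vehicle in WT (0.77 ± 0.36). Hoxb8 had 7.39 and 8.81 CPM with IMQ, against 6, 7.2 and 6.98 CPM with vehicle in WT, and Hoxa10 (values above) differed by 0.22 ± 0.13. None of these 4 overlapped between the WT groups, and none passed the test. Hoxb9 did overlap, at 10.2 and 16.3 CPM with IMQ, against 9.4, 10.8 and 10.8 CPM with vehicle. Its log2 change of 0.35 ± 0.18 became −0.02 without WT IMQ 2, the library that also stood apart for Xist.

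The difference of the IMQ effects, KO minus WT, called 0 of 32 Hox genes and 0% of all genes; 0 Hox genes had unadjusted p under 0.05. Among the smallest p were those of Hoxb8 (−0.43 ± 0.21), Hoxa9 (−0.35 ± 0.18), Hoxb9 (−0.42 ± 0.26) and Hoxa10 (−0.26 ± 0.18), all with an edgeR adjusted p of 0.999. Only 16 of the 32 intervals lay within 1 log2 unit of 0, so that a moderate difference in effect was not detectable for the rest.

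Fewer Hox genes reached 1 CPM in cultures than in ganglia, although 1 of the 39 had no count in any culture library and 4 had none in any ganglion library. Of the 39 genes, 25 averaged at least 1 CPM over the 12 culture libraries and 22 reached 1 CPM in every one. The summed Hox level ran from 181 to 218 CPM in cultures, against 295 to 351 CPM in ganglia. Per kilobase, the highest mean levels in cultures were those of Hoxd8 (9.08 CPM per kb), Hoxa7 (6.97), Hoxb7 (6.65), Hoxb9 (6.48) and Hoxd9 (4.94), all of groups 7 to 9, and Hoxd1 ranked 22 of 39 at 0.861 CPM per kb. In bulk RNA, fewer cells of a type and less RNA per cell cannot be told apart.

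Groups 1 to 3 and groups 10 to 13 each gave a smaller share of the Hox counts in cultures than in ganglia, and group 9 a larger one. Groups 1 to 3 gave 4.46 to 8.58% of the Hox counts in a culture library, against 13.5 to 16.8% in ganglia. Groups 4 to 8 gave 54.8 to 63.8% in cultures, against 50.6 to 55.3% in ganglia. Group 9 gave 25.7 to 30.7% in cultures, against 19.5 to 23.4% in ganglia. These are shares of a summed level that was itself lower in cultures. Mean levels in cultures were 21 CPM for Hoxa9, 16.7 for Hoxb9, 5.44 for Hoxc9 and 10.5 for Hoxd9. Those in ganglia were 39.5, 11.4, 4.9 and 11.1 CPM. The ranges of groups 4 to 8 overlapped, and those of groups 1 to 3 and of group 9 did not. Groups 10 to 13 gave 4.68 to 6.76% in cultures, against 8.13 to 12.7% in ganglia, and group 11 alone 0.0626 to 0.254% in cultures, against 0.246 to 1.33% in ganglia, where KO vehicle 2 was the only library below 0.564%. Groups 12 and 13 had the opposite direction, at 0.0558 to 0.313% in cultures, against 0 to 0.0214% in ganglia.

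**Figure D4:**
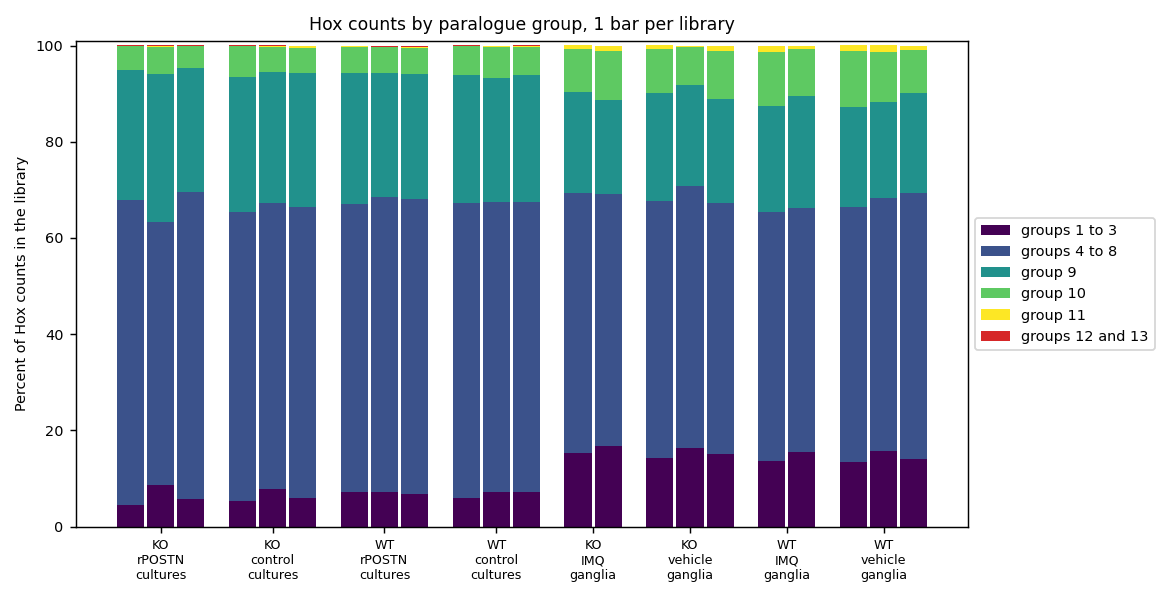
Percent of each library's Hox counts that fell in each band of paralogue groups, 1 bar per library, with cultures on the left and ganglia on the right. The dark band of groups 1 to 3 is 4.46 to 8.58% in cultures and 13.5 to 16.8% in ganglia, and the group 10 and 11 bands are narrower in cultures.

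Control cultures were compared with vehicle ganglia of the same genotype to see which Hox genes the cultures shared with the ganglia. Tissue, preparation and deposited table coincide here and cannot be told apart, and the segments behind the cultures are not given. In KO, 18 of 31 Hox genes tested were called, 4 higher and 14 lower, or 58.1%, against 70.1% of all genes (36.4% higher and 33.8% lower). In WT, 18 of 31 were called, 3 higher and 15 lower, again 58.1%, against 69% of all genes (35.2% higher and 33.7% lower). The share of Hox genes called was thus below that of all genes in both genotypes, and most Hox calls were on the lower side. The median log2 change was −0.28 in KO and −0.36 in WT, against 0.04 and 0.01 over all genes. There were 13 genes lower in both genotypes, 2 higher in both and 10 called in neither. Hoxd10, Hoxc11 and Hoxd11 were too low to be tested within either culture table. They passed the count filter here through their ganglion values, so that they could only be called lower. The groups did not overlap for 20 of 31 Hox genes in KO (64.5%, against 71% of all genes) and for 21 of 31 in WT (67.7%, against 76.2% of all genes).

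Hoxd1 had the clearest difference. It had 1.84, 2.05 and 1.11 CPM in KO control cultures, against 27, 25.2 and 26 CPM in KO vehicle ganglia (log2 change −3.94 ± 0.23, 15.4-fold lower, edgeR adjusted p = 6.69e-09). In WT it had 1.26, 1.74 and 0.749 CPM in control cultures, against 23.2, 23.3 and 20.7 CPM in vehicle ganglia (−4.16 ± 0.24, 17.9-fold lower, adjusted p = 6.34e-09). The preparations did not overlap: the highest of all 12 was KO rPOSTN 2 at 4.05 CPM, and the lowest ganglion library had 20.4 CPM.

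Other rostral genes split by cluster. Of groups 1 to 3, 4 of 7 were lower in KO and 4 of 7 in WT. Of all genes, 33.8% were called lower in KO and 33.7% in WT, and 70.1% and 69% in either direction. The 4 Hox genes were the same in both genotypes, Hoxd1, Hoxb2, Hoxb3 and Hoxd3. Hoxb2 had 0.436, 0.951 and 1.06 CPM in KO control cultures, against 5.92, 3.67 and 4.57 CPM in KO vehicle ganglia (−2.50 ± 0.38), and 0.527, 1.74 and 0.957 CPM in WT control cultures, against 3.96, 3.85 and 4.05 CPM in WT vehicle ganglia (−1.86 ± 0.37). Hoxb3 had 1.65, 2.75 and 2.37 CPM in KO control cultures, against 8.13, 10.8 and 9.2 CPM in KO vehicle ganglia (−2.04 ± 0.24), and in WT differed by −1.97 ± 0.24. Hoxd3 differed by −1.14 ± 0.27 in KO and −1.47 ± 0.28 in WT. All of these lay without overlap below the ganglia. The exon overlaps given above limit Hoxb2, Hoxb3 and Hoxd3 here too. Hoxb3os was itself lower in cultures (−4.13 ± 0.26 in KO, −4.83 ± 0.27 in WT), and its part in the values of Hoxb2 and Hoxb3 was not tested. Hoxa2 was not called in either genotype. For Hoxa3, genes on the opposite strand, among them Hoxaas2 and Hoxaas3, overlap 25.4% of the exon length. Hoxa3 was called higher in WT, at 3.84, 5.22 and 6.54 CPM in control cultures, against 2.41, 3.41 and 2.61 CPM in vehicle ganglia (0.91 ± 0.25, adjusted p = 0.00578), and was not called in KO (0.45 ± 0.25, adjusted p = 0.119); the difference of these changes was not tested.

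In groups 4 to 8, 15 genes were tested, and the calls went in both directions. In KO 3 were higher and 5 lower, and in WT 1 was higher and 5 lower, with median log2 changes of −0.06 and −0.23. Of all genes, 70.1% were called in KO and 69% in WT. Hoxb5 had the largest change of these 15 in each genotype: it had 3, 3.7 and 2.66 CPM in KO control cultures, against 22.7, 18.1 and 17.3 CPM in KO vehicle ganglia (−2.61 ± 0.17, 6.11-fold lower), and 3.11, 4.06 and 3.41 CPM in WT control cultures, against 18.5, 16.4 and 20.5 CPM in WT vehicle ganglia (−2.36 ± 0.17, 5.15-fold lower). Its paralogues Hoxa5 and Hoxc5 were not called in either genotype, with changes between −0.29 and 0.26.

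Smaller decreases in both genotypes were found for Hoxa7, Hoxb8 and Hoxd8. Hoxa7 had 20.4, 21.1 and 22.9 CPM in KO control cultures, against 40.8, 34.8 and 40.1 CPM in KO vehicle ganglia (−0.82 ± 0.12), and 16.3, 20 and 21.4 CPM in WT control cultures, against 35.5, 34.2 and 39.1 CPM in WT vehicle ganglia (−0.89 ± 0.12). Hoxb8 had 3.73, 4 and 4.59 CPM in KO control cultures, against 8.76, 8.32 and 8.08 CPM in KO vehicle ganglia (−1.01 ± 0.15), and 4.16, 4.79 and 4.75 CPM in WT control cultures, against 6, 7.2 and 6.98 CPM in WT vehicle ganglia (−0.54 ± 0.15). Hoxd8 differed by −0.46 ± 0.12 in KO and −0.49 ± 0.12 in WT. None of these overlapped between cultures and ganglia of a genotype.

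Hoxa6 was higher in cultures of both genotypes, at 1.94, 1.9 and 1.98 CPM in KO control cultures, against 0.315, 0.87 and 0.502 CPM in KO vehicle ganglia (1.76 ± 0.37, 3.39-fold), and 1.63, 1.32 and 1.62 CPM in WT control cultures, against 0.371, 0.837 and 0.906 CPM in WT vehicle ganglia (1.11 ± 0.36, 2.17-fold). The WT call was lost without WT vehicle 1 (0.81 on the log2 scale, adjusted p = 0.0647). Hoxb4 was higher in KO, at 11.8, 12.3 and 10.3 CPM in control cultures, against 7, 7.93 and 7.64 CPM in vehicle ganglia (0.63 ± 0.13), and was not called in WT (0.25 ± 0.13). The remaining calls were close to the threshold: Hoxd4 higher in KO (2.47, 1.9 and 2.66 CPM in control cultures, against 1.01, 1.74 and 1.39 CPM in vehicle ganglia, adjusted p = 0.0444), Hoxc8 lower in KO (5.86, 4.1 and 6.04 CPM, against 9.89, 6.82 and 6.69 CPM, adjusted p = 0.049) and Hoxc4 lower in WT (6.21, 6.59 and 5.45 CPM, against 6.99, 8.65 and 8.1 CPM, adjusted p = 0.0412). Each of these 3 was lost under several alternatives. Hoxa4, Hoxb6, Hoxc6 and Hoxb7 were not called in either genotype.

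Group 9 divided. Hoxb9 was higher in cultures, at 17.8, 18.5 and 15.6 CPM in KO control cultures, against 11.2, 11.3 and 11.9 CPM in KO vehicle ganglia (0.61 ± 0.12), and 15.3, 14.9 and 17.5 CPM in WT control cultures, against 9.4, 10.8 and 10.8 CPM in WT vehicle ganglia (0.64 ± 0.12). Hoxa9 was lower, at 22.3, 21.2 and 25.3 CPM in KO control cultures, against 43.7, 38.5 and 38.1 CPM in KO vehicle ganglia (−0.79 ± 0.10), and 19.6, 20.7 and 18.2 CPM in WT control cultures, against 34.2, 35.8 and 37.3 CPM in WT vehicle ganglia (−0.85 ± 0.10). Neither gene overlapped between control cultures and vehicle ganglia of a genotype. Over all libraries Hoxb9 ran from 14.9 to 18.5 CPM in cultures, against 9.4 to 16.3 CPM in ganglia, where WT IMQ 2 was the 1 ganglion library within the range of the cultures. Hoxc9 and Hoxd9 were not called: Hoxd9 had 10.9, 12.5 and 13.1 CPM in KO control cultures, against 17, 8.65 and 12.9 CPM in KO vehicle ganglia, an interval of −0.52 to 0.42 on the log2 scale, and Hoxc9 had 6.1, 6.11 and 3.91 CPM against 7.44, 3.19 and 5.46 CPM, an interval of −0.57 to 0.63.

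All 3 genes of group 10 were lower in cultures of both genotypes, against 33.8% of all genes in KO and 33.7% in WT. Of the 2 genes of group 11 tested, 1 was called lower in KO and 2 in WT. For Hoxd10 and the 2 genes of group 11 the count filter had fixed that direction, as given above. Hoxa10 had 10.3, 8.41 and 9.61 CPM in KO control cultures, against 17.3, 15.9 and 18.3 CPM in KO vehicle ganglia (−0.84 ± 0.13), and 7.53, 9.32 and 7.58 CPM in WT control cultures, against 17.6, 16.9 and 14.9 CPM in WT vehicle ganglia (−0.99 ± 0.13). Hoxc10 had 2.42, 2.35 and 1.26 CPM in KO control cultures, against 7.5, 5.12 and 6.97 CPM in KO vehicle ganglia (−1.67 ± 0.25), and 2.79, 2.16 and 3.21 CPM in WT control cultures, against 7.17, 7.43 and 6.82 CPM in WT vehicle ganglia (−1.36 ± 0.24). Hoxd10 had 0.629, 0.45 and 0.386 CPM in KO control cultures, against 7, 2.22 and 6.75 CPM in KO vehicle ganglia (−3.40 ± 0.48), and 0.316, 0.738 and 0.458 CPM in WT control cultures, against 10.1, 6.81 and 5.06 CPM in WT vehicle ganglia (−3.82 ± 0.47). No library of a culture group overlapped the ganglia for any of the 3 genes. The change was smallest for Hoxa10 and largest for Hoxd10 in both genotypes, and the difference between the genes was not tested.

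Group 11 was close to the detection limit in cultures. Hoxc11 gave 3 counts in the 3 KO control cultures, against 62 in KO vehicle ganglia, a ratio of 0.043 (exact counting interval 0.00863 to 0.132), and 7 counts in WT control cultures, against 115 in WT vehicle ganglia, a ratio of 0.0519 (0.0204 to 0.11). It was called lower in both genotypes. Hoxd11 gave 5 counts in KO control cultures, all in library 3, against 21 in KO vehicle ganglia (ratio 0.211, interval 0.0623 to 0.576), and 2 in WT control cultures, against 38 in WT vehicle ganglia (0.0449, 0.00524 to 0.174). It was called lower in WT and not in KO (adjusted p = 0.0568). Hoxa11, too low to be tested here, gave 10 counts against 34 in KO and 12 against 24 in WT. These intervals cover counting error only.

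**Figure D5:**
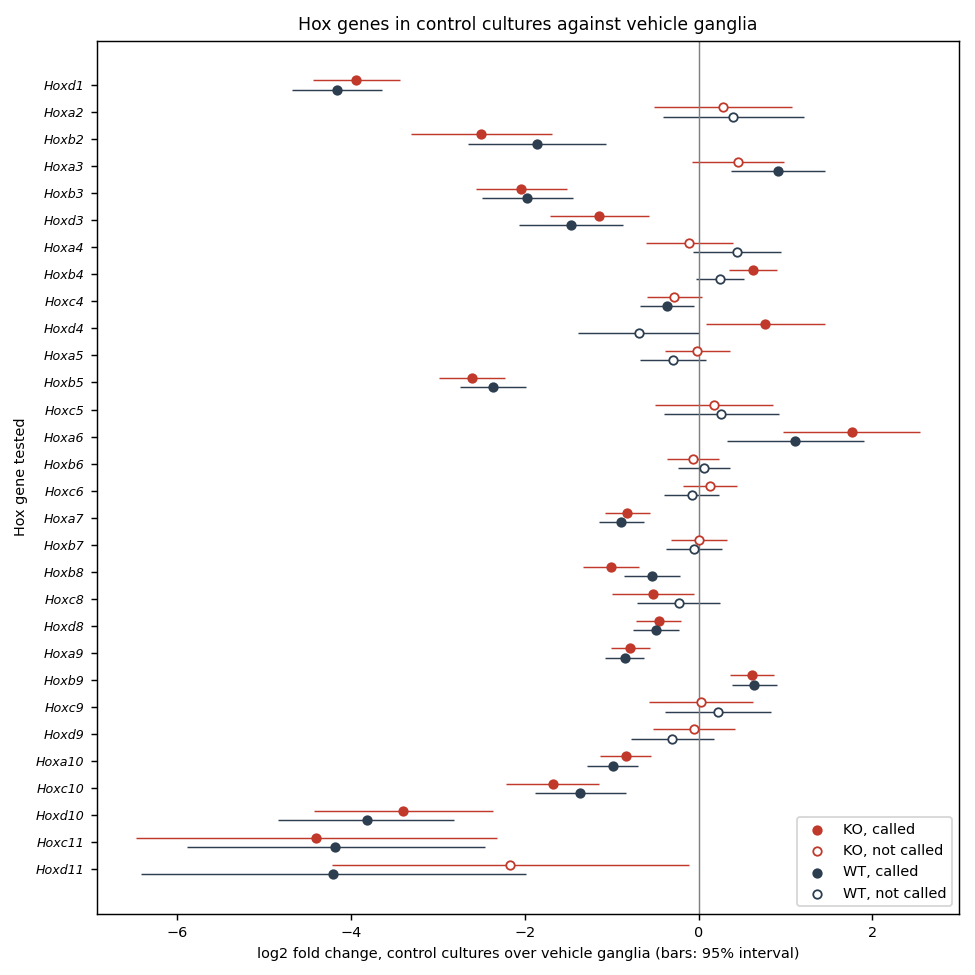
log2 fold change of Hox genes tested in control cultures over vehicle ganglia, KO in red and WT in dark blue, with 95% intervals; filled points passed FDR 0.05. Hoxd1 (−3.94 in KO, −4.16 in WT), Hoxd10 and Hoxc11 lie far to the left, and Hoxa6 and Hoxb9 are filled on the right in both genotypes.

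Groups 12 and 13 went the other way in raw counts, at very low levels. They gave 69 counts over the 12 culture libraries, 2 to 15 per library, and 3 counts over the 10 ganglion libraries, at most 1 per library. In cultures Hoxd13 gave 26 counts in 8 libraries, Hoxc13 23 in 9, Hoxa13 13 in 5, Hoxb13 4 in 1 and Hoxc12 3 in 2. No culture library exceeded 0.256 CPM for any of them, and none was tested. Other genes foreign to adult ganglia had low counts in the same libraries: En1, a midbrain and spinal cord regulator, gave 234 counts in cultures and 2 in ganglia, Mnx1, a motor neuron factor, 36 and 2, and Mog, a myelin protein of the central nervous system, 47 and 3. Their part in the result was not tested. Chat, a defining gene of motor neurons, was close to 0 in both (6 counts in cultures, 5 in ganglia). Of the 5 motor neuron markers 2 could be tested, with Slc5a7 called lower in KO (−1.09 ± 0.29) and 0 called in WT. The 6 central oligodendrocyte markers, Mog among them, summed lower in cultures, at 10.8 to 28.4 CPM, against 62.9 to 74 CPM in ganglia. Of the 3 tested, 2 were called lower in KO and 3 in WT, where 70.1% and 69% of all genes were called. Within the culture tables only 1 of these markers could be tested in KO and 2 in WT. Those too low there passed the count filter through other libraries, so that they had little room to be called higher.

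Cell type markers shifted between the preparations beside these Hox values. The 15 sensory neuron markers summed to 7222 to 9419 CPM in cultures, against 20203 to 23480 CPM in ganglia. Of these 15, 14 were called lower in each genotype, against 33.8% of all genes in KO and 33.7% in WT. Myelinating Schwann cell markers summed to 1459 to 2476 CPM in cultures, against 5409 to 15716 CPM in ganglia, and satellite glia markers to 1803 to 2540 CPM, against 3204 to 4675 CPM. Of the 9 myelinating Schwann cell markers, 1 was called higher and 8 lower in KO, and 0 higher and 8 lower in WT. Of the 7 satellite glia markers, 2 were called higher and 5 lower in each genotype. Proliferation markers summed to 63.3 to 200 CPM in cultures, against 8.12 to 28.4 CPM in ganglia. All 5 of 5 were called higher in each genotype, against 36.4% of all genes in KO and 35.2% in WT. The summed fibroblast markers overlapped, at 700 to 2092 CPM in cultures, against 1272 to 2367 CPM in ganglia. Of these 10 markers, 3 were called higher and 4 lower in KO, and 2 higher and 6 lower in WT. The sum includes Postn, which was higher in cultures (5.52 ± 0.50 in KO, 5.10 ± 0.47 in WT). The overlap of the sums therefore does not show an equal fibroblast content. The part of these shifts in the Hox values was not tested.

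Cultures with rPOSTN were compared with those in control medium within each genotype. With rPOSTN, 0 of 28 Hox genes were called in KO and 0 of 28 in WT, the same share as the 0% of all genes called in either, and 11 Hox genes were too low to be tested; 0 Hox genes in KO and 1 in WT had unadjusted p under 0.05, and DESeq2 called 0. The median log2 change was −0.04 in KO and 0.00 in WT, and 22 of 28 intervals in KO and 26 of 28 in WT lay within 1 log2 unit of 0, so that a larger difference was not detectable for the others. The groups did not overlap for 2 Hox genes in KO, Hoxa6 and Hoxc4 (7.14%, against 5.34% of all genes), and for 1 in WT, Hoxb4 (3.57%, against 9.78% of all genes). The 1 gene was Hoxa5, at 7.11, 8.72 and 7.53 CPM with rPOSTN, against 4.95, 6.01 and 7.53 CPM in control medium in WT (0.33 ± 0.15, edgeR adjusted p = 0.999). Next in WT were Hoxd4, at 1.75, 2.09 and 1.47 CPM with rPOSTN, against 1.63, 1.05 and 0.999 CPM, and Hoxb2, at 0.636, 0.603 and 0.805 CPM, against 0.527, 1.74 and 0.957 CPM, both overlapping. Between libraries of the same replicate number Hoxd4 was higher with rPOSTN in 3 of 3 pairs (0.54 ± 0.29 with the replicate block, edgeR adjusted p = 0.739); 7 of 28 Hox genes had 1 direction in the 3 pairs, or 25%, against 28% of all genes. Hoxd9 and Hoxb4 followed in WT with changes of 0.18 ± 0.12 and 0.16 ± 0.11.

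In KO cultures the smallest p were those of Hoxa10 (7.68, 8.52 and 6.76 CPM with rPOSTN, against 10.3, 8.41 and 9.61 CPM in control medium, −0.31 ± 0.19) and Hoxb3 (1.64, 1.3 and 1.7 CPM, against 1.65, 2.75 and 2.37 CPM, −0.54 ± 0.34), both overlapping. Hoxd3, Hoxb5 and Hoxc4 followed with changes of −0.67 ± 0.51, −0.37 ± 0.28 and −0.22 ± 0.21. KO rPOSTN 2 stood somewhat apart from the other cultures, with the highest Hoxd1 (4.05 CPM, against 0.749 to 2.05 CPM in the other 11) and the lowest share of groups 4 to 8 (54.8%, against 59.6 to 63.8%). The difference of the rPOSTN effects, KO minus WT, called 0 of 29 Hox genes and 0% of all genes, with 0 Hox genes at unadjusted p under 0.05. Its smallest p were those of Hoxb5 (−0.56 ± 0.29), Hoxd9 (−0.32 ± 0.21), Hoxa4 (0.43 ± 0.31), Hoxd3 (−0.83 ± 0.63) and Hoxc10 (0.40 ± 0.38), all with an edgeR adjusted p of 1.

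Between genotypes, control cultures gave 0 calls among 29 Hox genes, where 1.61% of all genes were called (0.582% higher and 1.03% lower in KO). Genotype and deposited table coincide here and cannot be told apart. Xist also divided the groups in part, at 0.421 and 0.79 CPM in WT control cultures 1 and 2. It held 709 to 1142 CPM in WT control culture 3 and the KO control cultures, and the part of this difference was not tested. There were 3 Hox genes with unadjusted p under 0.05, and DESeq2 called 0. Hoxd9 had 10.9, 12.5 and 13.1 CPM in KO, against 8.42, 8.01 and 9.82 CPM in WT (0.47 ± 0.15, edgeR adjusted p = 0.119). Hoxd4 had 2.47, 1.9 and 2.66 CPM in KO, against 1.63, 1.05 and 0.999 CPM in WT (0.93 ± 0.34, adjusted p = 0.188), and Hoxb4 11.8, 12.3 and 10.3 CPM in KO, against 8.64, 9.22 and 9.82 CPM in WT (0.31 ± 0.14, adjusted p = 0.299). None of the 3 overlapped between genotypes, and none passed the test; in all, 6 of 29 did not overlap, each higher in KO (20.7%, against 28.8% of all genes). Hoxa9 (0.23 ± 0.11) and Hoxc10 (−0.44 ± 0.27) followed. The caudal share was similar, with groups 10 to 13 at 6.67, 5.48 and 5.78% of Hox counts in KO control cultures, against 6.09, 6.76 and 6.21% in WT control cultures. The summed Hox level ran from 205 to 215 CPM in KO control cultures, against 181 to 195 CPM in WT control cultures, without overlap. Beside these values 4 marker genes were called lower in KO: Nefh (−0.74 ± 0.11) and Nefm (−0.37 ± 0.07) of the 15 sensory neuron markers, Kcnj10 (−0.70 ± 0.08) of the 7 of satellite glia and Kdr (−0.54 ± 0.12) of the 7 endothelial and mural markers, which summed to 283 to 307 CPM in KO control cultures, against 358 to 375 CPM in WT control cultures. Their part in the Hox values was not tested.

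Genes that work with or regulate the Hox clusters were compared between the preparations in the same way, and their counts are to be read against the 70.1% of all genes called in KO and 69% in WT. Of 9 genes for the TALE proteins, which bind DNA together with Hox proteins, 1 was higher and 6 lower in KO control cultures than in KO vehicle ganglia, and 1 higher and 4 lower in WT, with median log2 changes of −0.33 in KO and −0.27 in WT. Pknox2 had the largest decrease, with changes of −2.32 ± 0.13 in KO and −2.30 ± 0.13 in WT; it ran from 13.5 to 20 CPM in all cultures, against 74.6 to 103 CPM in all ganglia. Its paralogue Pknox1 was higher, by 1.23 ± 0.11 in KO and 1.11 ± 0.11 in WT. Meis2 was lower, with changes of −0.85 ± 0.18 in KO and −0.80 ± 0.18 in WT.

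Of 27 chromatin regulators of the Hox clusters, 16 were higher and 4 lower in each genotype, with median log2 changes of 0.51 in KO and 0.49 in WT, so that the share called was near that of all genes. Ezh2, the methyltransferase of the Polycomb complex that silences Hox genes, was higher by 2.42 ± 0.13 in KO and 2.23 ± 0.13 in WT, and Kdm6b, a demethylase that removes the same mark, by 1.44 ± 0.11 in KO and 1.61 ± 0.11 in WT. Of 17 other positional genes only 6 had enough counts, with 2 higher and 2 lower in each genotype. Rara, a retinoic acid receptor, was higher by 2.41 ± 0.13 in KO and 2.21 ± 0.13 in WT. The other gene called higher was En1, almost without counts in ganglia. It passed the count filter through its culture values, so that it could only be called higher. Hox cluster non-coding RNAs included 8 tested, of which 4 were lower in each genotype and 0 higher: Hoxb3os (−4.13 ± 0.26 in KO, −4.83 ± 0.27 in WT), Haglr (−2.77 ± 0.24 in KO, −3.15 ± 0.25 in WT), Hoxd3os1 and Hoxaas2. Haglr lies beside Hoxd1, and ran from 1.17 to 2.55 CPM in cultures, against 10.1 to 18.2 CPM in ganglia. In the other 9 comparisons none of these 4 lists had a gene called.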

How the data were processed

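The values are raw counts of reads for each Ensembl gene, deposited unnormalized by the authors in 1 table for the ganglia and 1 each for the KO and WT cultures. Per the labels' protocols, libraries were poly-A selected, made strand-specific with dUTP and sequenced as paired reads. Bowtie2 2.2.3, HISAT2 2.1.0 and TopHat2 are named, with GRCm39, in the submitters' processing notes. For the counting tool, strand setting and annotation, nothing is given in the sources used here. Symbols, exon lengths and overlaps came from GENCODE M21, which named 55141 of the 55487 genes.

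Genes passing filterByExpr were tested, two-sided, with edgeR 4.0.16 (robust quasi-likelihood, TMM, Benjamini-Hochberg over all genes tested) and called at an adjusted p below 0.05. SE is the absolute log2 change divided by the root of its F. The 10 ganglion libraries shared 1 fit, rPOSTN was fitted within each culture table, and control cultures and vehicle ganglia shared another fit. Alternatives were DESeq2 1.42.0, RLE factors, no count filter, other groups sharing the spread, a replicate block and leaving out each library. R 4.3.3 and Python 3.11.15 were used, and the script was tested on simulated data.

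Per-library values were given for genes of groups 9 to 13 reaching 1 CPM, for genes called and, with fewer than 5 calls, for the 5 with the smallest p; where a comparison's values repeat, some are given as fold changes or ranges only. The members and lists were chosen with earlier results of these data known. The list of non-coding RNAs took Mir196a and Mir196b alone, since its written pattern also caught miRNAs outside the Hox clusters. Replicate numbers were taken to pair samples where 3 pairs each correlated above 0.1 in their deviations from group means: WT cultures (0.32, 0.31 and 0.58), KO cultures (0.38, 0.68 and 0.6) and KO against WT vehicle ganglia (0.89, 0.84 and 0.16). IMQ and vehicle ganglia form fewer than 3 pairs and so could not meet this rule. Their correlations were 0.74 and 0.74 in KO and 0.23 and 0.2 in WT, so that whether they pair was left undecided. All of these are correlations across genes, which are not independent replicates. Results of 1 Hox gene are not reported here. The promoter windows rest on another build than the counts.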

Additional observations from a re-analysis of the deposited data

How the results depend on the processing

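The count of Hox genes called stayed at 0 in the 9 comparisons of treatment and genotype under every alternative run. For control cultures against vehicle ganglia it ran from 15 to 20 in KO and from 17 to 18 in WT, against 18 in each, with 16 to 20 in KO and 17 to 18 in WT when leaving out each library in turn, and 18 in KO and 17 in WT with DESeq2. With the replicate number as a block it was 17 in KO and 17 in WT, although numbers do not pair these samples, and 0 elsewhere, so that the block changed no call in the comparisons whose numbers pair the samples. Of the log2 changes of single genes, 1 turned its direction: Hoxb9 in WT ganglia with IMQ against vehicle ran from −0.02 without WT IMQ 2 to 0.65 without WT IMQ 1, against 0.35 with all libraries, and the cause was not tested. Among genes still tested, the calls lost under some alternatives were Hoxa6 and Hoxc4 in WT and Hoxc8 and Hoxd4 in KO. Calls lost because a gene was no longer tested were not listed, and the lowest KO count of 15 implies a loss of that kind. Depth limits groups 11 to 13, whose counts were too low for narrow intervals, and groups of 2 IMQ libraries limit those comparisons.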
